A study of Mus musculus with 2 samples.

Results

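The Kruppel-like factor genes *Klf2*, *Klf3*, *Klf4*, *Klf6*, *Klf10* and *Klf13*, together with *S1pr1*, were followed through the cell classes of 2 single-cell RNA-Seq libraries of mouse liver bearing cholangiocarcinoma (CCA). They are 7 of the 32589 genes in the files and were found by symbol. They were selected on measured values of these same libraries, namely their UMIs (unique molecular identifiers, each marking a captured transcript) summed per class in the anti–PD-1 library against the PBS library. Differences between the libraries in these genes are therefore descriptions and carry no test. CCA had been induced by hydrodynamic tail vein injection of Sleeping Beauty plasmids encoding the Notch intracellular domain (NICD) and myristoylated AKT. Both libraries came from shYT animals, in which doxycycline, given from day 25, induces knockdown of *Yap1* and of *Wwtr1*, which encodes TAZ, by shRNAs under a ubiquitously expressed rtTA3. PBS or anti–PD-1 (clone RMP1-14, which blocks PD-1) was given on days 26, 29 and 32 before the livers were collected on day 33. With 1 library per group, the spread between animals is unknown. The labels give neither the shYT line nor the age or sex of the animals, and do not say how animals were combined in a library.

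Kruppel-like factors are zinc finger transcription factors that bind GC-rich and CACCC-type DNA elements. KLF2 holds T cells in a quiescent, recirculating state and drives *S1pr1*, the receptor through which lymphocytes leave tissue along a sphingosine-1-phosphate gradient. In endothelium, KLF2 and KLF4 are induced by laminar blood flow and keep the vessel wall anti-inflammatory. KLF4 also acts in monocyte differentiation, *Klf6* is an early response gene, KLF10 is induced early by TGF-β, and KLF3 is a repressor that competes with other family members.

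The stretches upstream of *Klf2*, *Klf4* and *Klf6*, the members that were higher with anti–PD-1 in the most classes, are shown because Kruppel-like factors bind GC boxes. Each holds the 250 bases before the transcription start given by RefSeq (build GRCm38.p6, the same assembly as mm10), 5′ to 3′ in the direction of the gene. Capitals mark the GC box (GGGCGG, on either strand) and, in *Klf2*, also a match to the MEF2 motif.
*Klf2*, chr8:72318812-72319061, forward strand: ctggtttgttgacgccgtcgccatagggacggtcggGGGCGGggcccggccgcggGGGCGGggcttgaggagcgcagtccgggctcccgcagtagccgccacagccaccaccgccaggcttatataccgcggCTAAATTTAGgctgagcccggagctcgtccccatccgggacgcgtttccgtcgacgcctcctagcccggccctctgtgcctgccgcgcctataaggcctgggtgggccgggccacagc
*Klf4*, chr4:55532476-55532725, reverse strand: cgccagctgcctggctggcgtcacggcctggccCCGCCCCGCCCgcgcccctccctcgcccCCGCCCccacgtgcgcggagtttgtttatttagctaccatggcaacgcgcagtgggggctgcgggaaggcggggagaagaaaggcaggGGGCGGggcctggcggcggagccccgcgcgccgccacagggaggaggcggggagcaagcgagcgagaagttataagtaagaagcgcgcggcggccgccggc
*Klf6*, chr13:5861239-5861488, forward strand: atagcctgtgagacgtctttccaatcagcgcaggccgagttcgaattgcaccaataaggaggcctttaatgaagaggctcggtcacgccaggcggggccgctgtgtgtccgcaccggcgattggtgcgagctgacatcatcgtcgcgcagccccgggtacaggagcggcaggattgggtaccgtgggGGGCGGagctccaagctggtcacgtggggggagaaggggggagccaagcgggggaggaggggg
The *Klf2* stretch held 2 GC boxes, the *Klf4* stretch 4, of which the first pair shared a base, and the *Klf6* stretch 1. At least 1 GC box was present in 32.7% of all 32851 windows of this length. The MEF2 match of *Klf2* began 118 bases before the start and overlapped no GC box, and 2.92% of all windows held such a match on either strand. Of the 7 members, 5 were in the promoter table, and *Klf10* and *S1pr1* were not. The *Klf3* window held 6 GC boxes and the *Klf13* window 3. The CACCC box, which Kruppel-like factors also bind, was found at 1 position in *Klf2*, 0 in *Klf4* and *Klf6*, 5 in *Klf3* and 1 in *Klf13* on either strand, and 52.0% of all windows held one. These matches are letters in a window, not sites.

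The members lie on 7 different chromosomes. In mm10, *Klf2* (ENSMUSG00000055148) is at chr8:72319033-72321656, *Klf4* (ENSMUSG00000003032) at chr4:55527143-55532466 and *Klf6* (ENSMUSG00000000078) at chr13:5861482-5870394. *Klf3* (ENSMUSG00000029178) is at chr5:64803388-64832901, *Klf10* (ENSMUSG00000037465) at chr15:38291463-38300706, *Klf13* (ENSMUSG00000052040) at chr7:63886351-63938915 and *S1pr1* (ENSMUSG00000045092) at chr3:115710433-115715072.

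After removal of cells with fewer than 500 or more than 5000 genes or with over 10% of UMIs from mitochondrial genes, 15531 PBS and 16360 anti–PD-1 cells remained, with medians of 3159 and 2990 UMIs. Cells were placed in classes by 6 marker genes per class, which left 16.7% and 19.4% of them unassigned, and 12 classes had at least 100 cells in both libraries. T cell markers summed to 5238 and 5446 CPM (counts-per-million, each UMI sum scaled to all UMIs of the class) in T cells, whereas neutrophil markers summed there to 76.0 and 197 CPM and Kupffer cell markers to 115 and 297 CPM, both higher in the anti–PD-1 library. RNA of other classes in T cells differed in the opposite direction for tumor or biliary epithelial markers, which summed to 309 and 161 CPM, and for *Spp1* (1394 and 688 CPM). An *Xist* UMI was found in 45.7% of PBS cells but in only 11 anti–PD-1 cells, so sex and treatment cannot be told apart between the libraries. The libraries shared 219 cell barcodes. In tumor or biliary epithelial cells the knockdown targets were low in both libraries (9.76 and 11.7 CPM of *Yap1*, 11.7 and 7.12 CPM of *Wwtr1*), and with the shRNAs in both, these values do not measure the knockdown. CAFs had 107 and 67.2 CPM of *Wwtr1* (log2 ratio −0.64, −1.03 to −0.26) and 22.4 and 20.7 CPM of *Yap1* (−0.09).

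A member was counted as higher or lower in a class where (CPM + 5) differed at least 1.5-fold between the libraries and its mean CPM was at least 10. All intervals are 95% intervals of the counting error alone. *Klf4* was higher with anti–PD-1 in 10 of the 12 classes, *Klf2* in 9, *Klf6* in 8, *Klf3* in 5 and *S1pr1* in 3, *Klf10* was lower in 2, and *Klf13* reached the fold in none. *S1pr1* fell under the filter on low values in 6 classes, and the other members passed it in all 12. Just inside the fold lay *Klf6* in CD8 T cells (log2 ratio 0.64) and just outside it *Klf4* in monocytes (0.58). The contrast that gives these counts also chose the members.

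**Figure D1:**
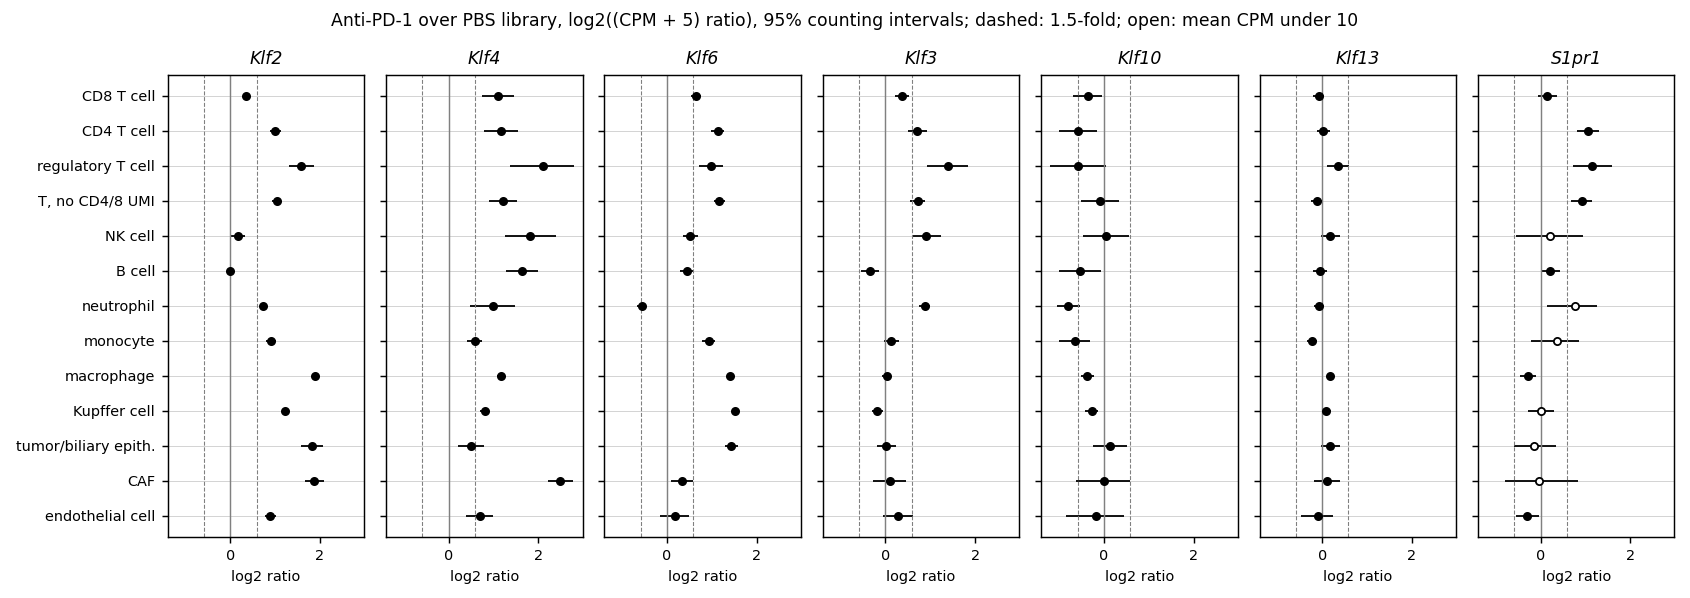
Log2 ratio of (CPM + 5), anti–PD-1 over PBS (x axis), for the 7 members in 12 classes plus endothelial cells (y axis), with bars for the 95% counting interval, dashed lines at 1.5-fold and open points where the mean CPM was under 10. *Klf4* lies right of 0 in every class plotted, *Klf10* lies left of 0 in most, and *Klf13* stays between the dashed lines.

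The T cell classes differed in how many members were higher, and the share of all genes past the same fold is given beside each count. In CD4 T cells (681 PBS and 810 anti–PD-1 cells) *Klf2*, *Klf3*, *Klf4*, *Klf6* and *S1pr1* were higher, where 5.6% of genes were higher and 8.37% lower. The same 5 members were higher in regulatory T cells (234 and 239 cells), where 8.13% of genes were higher and 12.4% lower. They were likewise higher in T cells lacking a CD4 or CD8 UMI (1322 and 971 cells), where 5.26% of genes were higher and 6.84% lower. In CD8 T cells (941 and 1386 cells) *Klf4* and *Klf6* reached the fold, beside 5.18% of genes higher and 5.57% lower. The median CD8 T cell had 2909 UMIs in the PBS and 4213 UMIs in the anti–PD-1 library, so a single *Cd8a* or *Cd8b1* UMI was easier to find in the latter.

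Among other lymphocytes, NK cells (400 and 589 cells) had *Klf3* and *Klf4* higher, with 5.76% of genes higher and 12.5% lower. B cells (932 and 1589 cells) had only *Klf4* higher, with 4.32% of genes higher and 8.61% lower.

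Myeloid classes shared *Klf2* as a higher member. Macrophages (3204 and 1546 cells; 6.73% of genes higher and 4.23% lower) and Kupffer cells, the resident macrophages of the liver (812 and 1431 cells; 4.59% higher and 2.61% lower), had *Klf2*, *Klf4* and *Klf6* higher. Monocytes (454 and 407 cells) had *Klf2* and *Klf6* higher and *Klf10* lower, with 8.46% of genes higher and 9.69% lower. Neutrophils (1061 and 2641 cells) had *Klf2*, *Klf3* and *Klf4* higher and *Klf10* lower, with 6.35% of genes higher and 21.8% lower.

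Outside the immune compartment, tumor or biliary epithelial cells (1244 and 762 cells) had *Klf2* and *Klf6* higher, with 7.59% of genes higher and 5.86% lower. Cancer-associated fibroblasts (CAFs; 408 and 170 cells) had *Klf2* and *Klf4* higher, with 10.1% of genes higher and 8.19% lower. So did endothelial cells, which had 512 PBS but 94 anti–PD-1 cells and so stand outside the 12 classes, with 9.22% of genes higher and 13.6% lower.

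The median log2 ratio of all genes ran from −0.27 in neutrophils to 0.02 in CAFs, so the split of genes into higher and lower depended on the scaling. Scaled to the median gene (median-of-ratios), 12.2% of neutrophil genes were higher and 8.98% lower, 8.53% and 7.95% of NK cell genes, 6.62% and 5.30% of B cell genes, 11.1% and 6.21% of monocyte genes, 8.75% and 1.90% of macrophage genes, and 6.21% and 1.23% of Kupffer cell genes. The corresponding values were 6.49% and 3.94% in CD8 T cells, 8.10% and 4.50% in CD4 T cells, 10.2% and 9.59% in regulatory T cells, 7.52% and 4.00% among T cells without a CD4 or CD8 UMI, and 11.7% and 10.6% in endothelial cells. With this scaling 37 of the 39 member differences counted in the 13 classes were kept, and those of *Klf10* in neutrophils and monocytes were not. A further 3 passed the fold with this scaling only, all as higher. Among them were *Klf4* in monocytes (0.70) and *Klf6* in B cells (0.59).

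*Klf2*, the quiescence and flow factor, spanned a wide range of levels. In the PBS library it was highest in B cells (1015 CPM) and neutrophils (968 CPM), whose intervals overlapped, followed by endothelial cells (857 CPM) and Kupffer cells (712 CPM), each below the last by more than counting error. It was at 147 CPM in macrophages, 131 CPM in CAFs and 27.3 CPM in tumor or biliary epithelial cells, the lowest value among 18 classes of 50 or more cells per library, with an interval that overlapped that of plasma cells (37.5 CPM). In the anti–PD-1 library Kupffer cells (1662 CPM), neutrophils (1614 CPM) and endothelial cells (1592 CPM) overlapped at the top and B cells followed at 1014 CPM.

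The largest *Klf2* ratios were those of macrophages, CAFs and tumor or biliary epithelial cells, which had low levels in the PBS library, among the compared classes. Macrophages had 4080 *Klf2* UMIs (147 CPM) with PBS and 7265 (562 CPM) with anti–PD-1, a log2 ratio of 1.90 (1.84 to 1.95). CAFs had 131 and 492 CPM, a log2 ratio of 1.87 (1.67 to 2.08). Tumor or biliary epithelial cells had 27.3 and 109 CPM, a log2 ratio of 1.82 (1.58 to 2.07). Macrophage markers summed to 397 and 768 CPM and Kupffer cell markers to 88.6 and 364 CPM in these epithelial cells, and to 430 and 661 CPM and 84.1 and 246 CPM in CAFs, so myeloid RNA was also higher there. In macrophages Kupffer cell markers summed to 124 and 380 CPM and neutrophil markers to 151 and 274 CPM, both of classes with more *Klf2*. The part of this RNA in *Klf2* was not tested in any of these classes.

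Lymphocyte classes differed in whether their *Klf2* ratio passed the fold. Regulatory T cells had 124 and 381 CPM, a log2 ratio of 1.58 (1.30 to 1.86). CD4 T cells had 310 and 627 CPM (1.00, 0.89 to 1.12), and T cells without a CD4 or CD8 UMI 354 and 731 CPM (1.04, 0.94 to 1.14). CD8 T cells stood at 524 and 674 CPM (0.36, 0.28 to 0.44) and NK cells at 436 and 493 CPM (0.18, 0.02 to 0.33), both under the fold. B cells had 1015 and 1014 CPM, with an interval of the log2 ratio from −0.08 to 0.07.

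Over all cells myeloid *Klf2* was higher in each class, although in cell subsets described further on it fell under the fold in some of them. Kupffer cells had 712 and 1662 CPM (log2 ratio 1.22, 1.18 to 1.26), monocytes 350 and 659 CPM (0.90, 0.80 to 1.01), and neutrophils 968 and 1614 CPM (0.73, 0.66 to 0.81). Endothelial cells had 857 and 1592 CPM (0.89, 0.77 to 1.01).

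**Figure D2:**
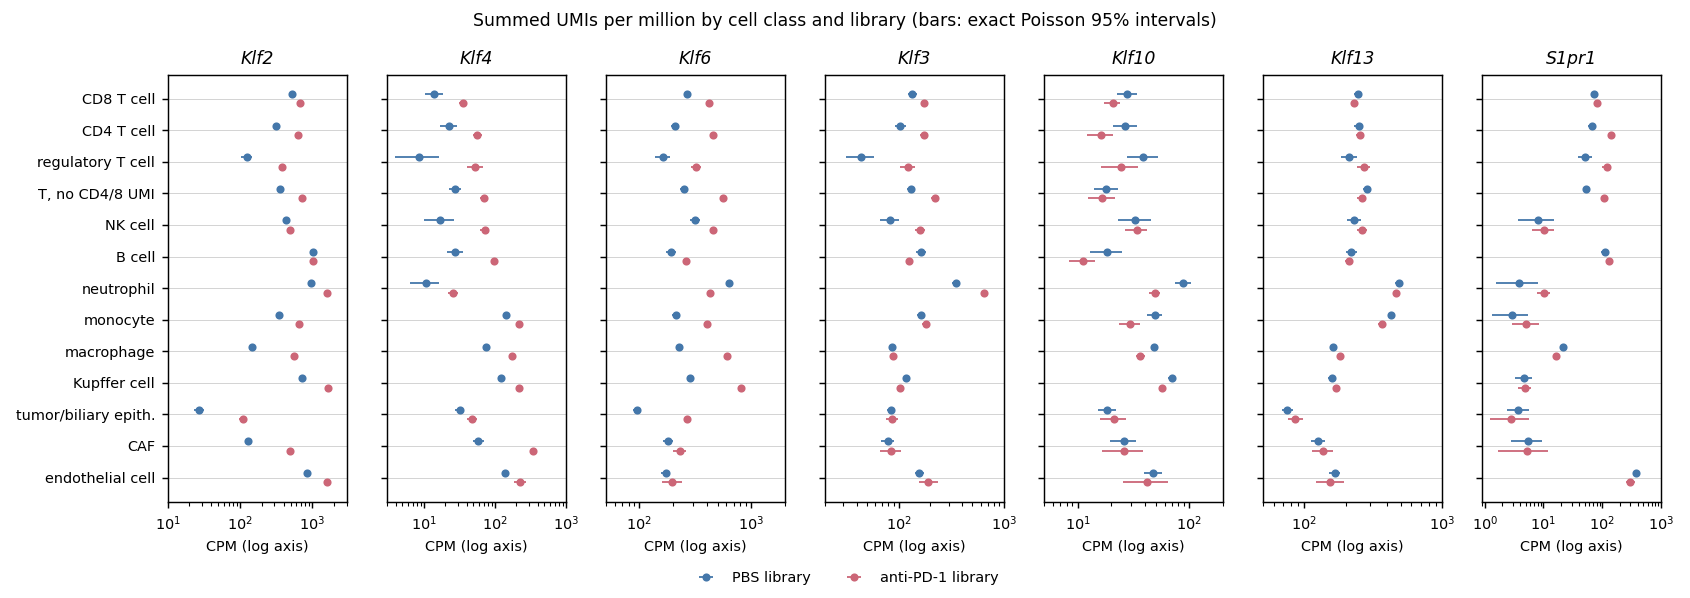
Summed UMIs as CPM (x axis, log scale) of each member in 12 classes plus endothelial cells (y axis), PBS library in blue and anti–PD-1 library in red, with exact Poisson 95% intervals as bars. Among the classes plotted *Klf2* is lowest in tumor or biliary epithelial cells and *S1pr1* highest in endothelial cells, in both libraries.

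The share of cells with a *Klf2* UMI was compared after each cell had been thinned to 1000 UMIs. It was 8.58% (5.32% to 12.9%) of PBS and 28.9% (23.2% to 35.1%) of anti–PD-1 regulatory T cells. Among CD4 T cells it was 21.3% (18.3% to 24.6%) and 37.4% (34.0% to 40.8%). Among macrophages it was 11.8% (10.7% to 12.9%) and 34.5% (31.9% to 37.0%). The intervals of the libraries were apart in these 3 classes, whereas B cells (51.3% and 54.5%) and NK cells (31.9% and 31.8%) had intervals that overlapped. Tumor or biliary epithelial cells, which had little *Klf2*, gave 2.36% at a median of 2431 UMIs before thinning and 11.5% at 1650 UMIs. The shares without thinning were 36.7% and 61.4% of CD4 T cells and 23.9% and 54.8% of regulatory T cells, at medians of 2908 and 3636 UMIs and of 3326 and 4143 UMIs. Thinning left out at most 5 cells per library in these T cell classes, 73 PBS and 179 anti–PD-1 macrophages, and 144 and 138 epithelial cells.

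*Klf4*, a factor of monocytes and endothelium, was low in lymphocytes. In the PBS library monocytes (143 CPM), cDC2 (type 2 conventional dendritic cells, 141 CPM), endothelial cells (140 CPM) and Kupffer cells (122 CPM) led, each overlapping the next, and the T cell classes lay at or under 27.8 CPM. In the anti–PD-1 library CAFs came first at 350 CPM and stood clear of endothelial cells at 230 CPM.

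CAFs also had the largest *Klf4* ratio of the 12 classes. They held 131 UMIs (58.6 CPM) with PBS and 339 UMIs (350 CPM) with anti–PD-1, a log2 ratio of 2.48 (2.20 to 2.76). After thinning, 24 of 343 PBS CAFs (interval 4.53% to 10.2%) and 15 of 137 anti–PD-1 CAFs (6.26% to 17.4%) had a *Klf4* UMI, and these intervals overlapped. Without thinning the shares were 18.1% (14.5% to 22.2%) and 34.7% (27.6% to 42.4%), at medians of 3703 and 3388 UMIs, and these intervals did not overlap. In CAFs with no *Fos*, *Fosb* or *Egr1* UMI the log2 ratio was 1.57 (0.52 to 2.50), on 11 anti–PD-1 UMIs, where that of neutrophils was 1.87 (0.42 to 3.10).

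In lymphocytes *Klf4* rested on few UMIs. Regulatory T cells had 9 and 63 UMIs (8.54 and 53.0 CPM, log2 ratio 2.10, 1.36 to 2.78). NK cells had 16.8 and 72.0 CPM (1.82, 1.25 to 2.39). B cells had 27.6 and 96.0 CPM (1.63, 1.28 to 1.99), and 2.28% (1.40% to 3.49%) and 8.85% (7.49% to 10.4%) of them had a *Klf4* UMI after thinning. RNA of myeloid cells was also higher in the anti–PD-1 lymphocytes. Kupffer cell markers summed to 168 and 382 CPM in B cells, 119 and 324 CPM in NK cells and 69.2 and 290 CPM in regulatory T cells. Macrophage markers summed to 674 and 810 CPM and neutrophil markers to 85.4 and 155 CPM in B cells. Their part in the *Klf4* values was not tested. After thinning, 2.91% and 3.69% of tumor or biliary epithelial cells had a *Klf4* UMI, and their levels of 32.2 and 47.7 CPM (0.50) were under the fold.

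In macrophages *Klf4* was at 75.7 and 176 CPM (log2 ratio 1.17, 1.08 to 1.25) and in Kupffer cells at 122 and 216 CPM (0.80, 0.70 to 0.91). Monocytes, at 143 and 216 CPM (0.58, 0.41 to 0.75), reached the Kupffer cell level of the same library without passing the fold.

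*Klf6*, the early response member, was highest in mature migratory dendritic cells in both libraries, at 644 and 1309 CPM. PBS neutrophils overlapped with them at 634 CPM, and every other PBS class was at or under 317 CPM. Kupffer cells had 283 and 817 CPM, a log2 ratio of 1.51 (1.45 to 1.58). Tumor or biliary epithelial cells had 95.9 and 268 CPM (1.44, 1.28 to 1.59), and macrophages 227 and 609 CPM (1.41, 1.36 to 1.45). In T cells the *Klf6* ratio was larger in CD4 T cells (207 and 458 CPM, 1.12, 0.98 to 1.27) than in CD8 T cells (269 and 423 CPM, 0.64, 0.54 to 0.75), and these intervals did not overlap.

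Neutrophils went the other way. They had 634 CPM of *Klf6* with PBS and 428 CPM with anti–PD-1, a log2 ratio of −0.56 (−0.66 to −0.46), just short of the fold, and were the only one of the 12 classes with a *Klf6* interval below 0. Since the median gene of neutrophils was also lower, the ratio was −0.25 (−0.35 to −0.15) when scaled to it. In CAFs (180 and 228 CPM, 0.33) and B cells (191 and 262 CPM, 0.44) *Klf6* stayed under the fold.

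*Klf3*, the repressor, was highest in neutrophils in both libraries, at 348 and 641 CPM (log2 ratio 0.87, 0.75 to 1.00), clear of every other class. Regulatory T cells had the largest ratio over all cells, from 43.6 to 122 CPM (1.39, 0.94 to 1.84), but not among the *Xist*-negative cells with a Y-linked UMI described further on, where it was 0.59 (−0.54 to 1.93) on 6 PBS UMIs, against 1.27 (0.37 to 2.26) in NK cells. Over all cells NK cells had 82.4 and 159 CPM (0.91, 0.59 to 1.24). CD4 T cells had 104 and 174 CPM (0.71, 0.51 to 0.92) and CD8 T cells 135 and 176 CPM (0.37, 0.22 to 0.52). No difference was detectable at this depth in macrophages (86.8 and 88.4 CPM), tumor or biliary epithelial cells (85.7 and 87.2 CPM) or CAFs (78.7 and 84.7 CPM). B cells had less *Klf3* with anti–PD-1, 127 against 162 CPM (−0.34, −0.53 to −0.15).

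*Klf10*, induced early by TGF-β, was low in the 12 classes, from 18.1 to 88.1 CPM with PBS and from 11.1 to 57.1 CPM with anti–PD-1. Neutrophils had 88.1 and 48.9 CPM, a log2 ratio of −0.79 (−1.05 to −0.52). Monocytes had 48.9 and 29.4 CPM, a log2 ratio of −0.65 (−0.99 to −0.31). The ratio was below 0 in 10 of the 12 classes and its interval in 7. The median of all genes was also below 0 in each of the 12 classes but CAFs. The share of all genes with an interval below 0 was not computed. Scaled to the median gene, *Klf10* did not pass the fold in neutrophils or monocytes. NK cells (32.8 and 33.8 CPM) and tumor or biliary epithelial cells (18.5 and 21.0 CPM) had ratios above 0 with intervals that spanned it.

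*Klf13* was the most even member over all cells. Its log2 ratios ran from −0.22 (−0.34 to −0.10) in monocytes, at 428 and 367 CPM, to 0.35 (0.10 to 0.59) in regulatory T cells, at 212 and 270 CPM. Neutrophils held the most in both libraries, at 488 and 466 CPM, although the anti–PD-1 interval overlapped that of plasmacytoid dendritic cells (410 CPM). In the cell subsets described further on, where more of all genes passed the fold, *Klf13* was less even. Among Y-linked cells it was at −0.60 in CD8 T cells and −0.62 in endothelial cells. In cells with no *Fos*, *Fosb* or *Egr1* UMI it was at 0.62 in macrophages and −1.40 in CAFs.

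*S1pr1* was highest in endothelial, B and T cells. In NK cells (7.97 and 10.1 CPM) it was under the filter. Endothelial cells led with 969 UMIs (370 CPM) in the PBS and 144 UMIs (301 CPM) in the anti–PD-1 library, a log2 ratio of −0.29 (−0.55 to −0.04), opposite in sign to *Klf2* in the same cells. B cells came next in the PBS library, at 111 CPM, and in the anti–PD-1 library CD4 T cells (142 CPM), B cells (129 CPM) and regulatory T cells (120 CPM) overlapped.

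Among T cells the *S1pr1* difference was seen outside the CD8 gate. CD4 T cells had 66.2 and 142 CPM, a log2 ratio of 1.05 (0.81 to 1.29). Regulatory T cells had 51.2 and 120 CPM (1.15, 0.72 to 1.59), and T cells without a CD4 or CD8 UMI 53.5 and 105 CPM (0.91, 0.67 to 1.16). CD8 T cells had 73.6 and 82.2 CPM, and the interval of their ratio, −0.06 to 0.36, lay below those of the other T cell classes. After thinning, 8.43% (6.45% to 10.8%) and 14.2% (11.9% to 16.8%) of CD4 T cells had an *S1pr1* UMI, against 0.378% and 0.435% of Kupffer cells (medians of 9258 and 9600 UMIs), in which *S1pr1* was under 5 CPM. Macrophages held little *S1pr1*, 21.4 and 16.6 CPM (−0.29, −0.47 to −0.11).

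*S1pr1* was then compared between cells with and without a *Klf2* UMI inside each library, which makes no use of the contrast between them. In PBS CD4 T cells it was at 123 CPM in the 250 cells with a *Klf2* UMI and at 34.1 CPM in the 431 cells without. In anti–PD-1 CD4 T cells the values were 187 and 54.4 CPM. CD8 T cells gave 104 and 30.4 CPM with PBS and 101 and 29.8 CPM with anti–PD-1. Over all T cells the log2 ratio was 1.64 (1.42 to 1.86) in the PBS and 1.55 (1.36 to 1.74) in the anti–PD-1 library, so *S1pr1* was higher in *Klf2*-positive T cells of both. In B cells the split was small, at 121 and 87.3 CPM with PBS and 133 and 115 CPM with anti–PD-1. With every cell thinned to 1000 UMIs the log2 ratio over all T cells was 1.86 (1.49 to 2.23) with PBS and 0.98 (0.72 to 1.24) with anti–PD-1. Cells of 1 library are not replicates, and these intervals describe counting error within it.

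**Figure D3:**
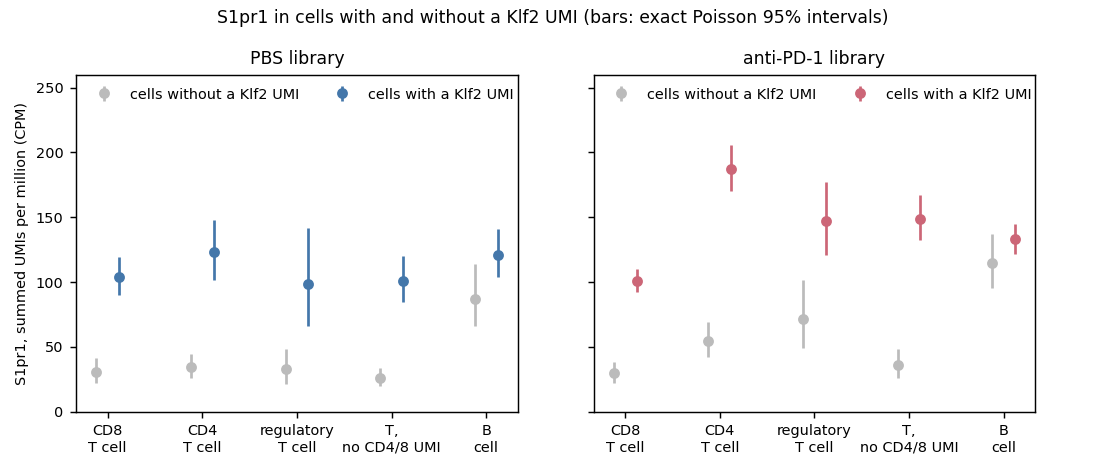
*S1pr1* level (y axis, CPM of summed UMIs) in cells with (colored) and without (grey) a *Klf2* UMI, by class (x axis), PBS library left and anti–PD-1 library right, with exact Poisson 95% intervals as bars. In all T cell classes of both libraries the colored points lie above the grey ones, and in B cells the intervals overlap.

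*Pdcd1* encodes PD-1, the target of the antibody, and T cells were split by it after the data had been seen. CD8 T cells with a *Pdcd1* UMI had 347 and 317 CPM of *Klf6* (log2 ratio −0.13), and those without had 249 and 502 CPM (1.00). *Klf2* in CD8 T cells was at 234 and 334 CPM with *Pdcd1* (0.50, under the fold) and at 597 and 928 CPM without (0.63). In CD4 T cells *Klf2* was at 93.9 and 329 CPM with *Pdcd1* (1.76) and at 474 and 791 CPM without (0.73). A *Pdcd1* UMI was found in 18.5% of PBS and 32.8% of anti–PD-1 CD8 T cells and in 32.5% and 28.2% of CD4 T cells. These shares were not thinned, at medians of 2909 and 4213 UMIs in CD8 T cells and 2908 and 3636 UMIs in CD4 T cells. Split by *Cd69*, whose product holds S1PR1 off the cell surface, *S1pr1* in CD4 T cells was at 72.9 and 133 CPM with *Cd69* and 61.7 and 152 CPM without.

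Early response genes were higher with anti–PD-1 in many classes. Of 14 early response and dissociation stress genes, 14 were higher with anti–PD-1 in tumor or biliary epithelial cells, CAFs and endothelial cells, 13 in macrophages and in Kupffer cells, 10 in CD4 T cells, 9 in CD8 T cells and 5 in B cells, while in neutrophils 6 were higher and 2 lower. The median log2 ratio of these genes ran from 0.19 in neutrophils to 2.26 in CAFs, where the medians of all genes tested were −0.27 and 0.02. Of all genes tested, 10.1% were higher in CAFs and 6.35% in neutrophils. In CAFs 14 of these 14 genes and 2 of the 6 members that passed the filter were higher, and in regulatory T cells 9 of 14 and 5 of 7. The counts were 10 of 14 and 5 of 7 in CD4 T cells, and 5 of 14 and 1 of 7 in B cells. Whether the members move with these genes was not tested. Examples in endothelial cells were *Atf3* (26.7 and 274 CPM) and *Fosb* (14.9 and 152 CPM), both factors of the immediate early response, and the heat shock gene *Hspa1a* (68.7 and 414 CPM). The following shares were not thinned, at medians of 2760 and 3659 UMIs in T cells and 8011 and 7724 UMIs in macrophages. Cells with no *Fos*, *Fosb* or *Egr1* UMI made up 55.1% of PBS but 29.0% of anti–PD-1 T cells and 17.4% and 8.60% of macrophages.

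In those cells the member ratios partly changed, and a larger share of all genes passed the fold than over all cells. Of all genes, 24.1% were higher and 18.7% lower in macrophages, 14.9% and 19.5% in regulatory T cells, and 7.50% and 13.8% in CD4 T cells. The shares were 17.0% and 28.0% in Kupffer cells and 12.7% and 34.8% in neutrophils. *Klf2* had a log2 ratio of 2.04 (1.61 to 2.44) in macrophages, 1.74 (1.26 to 2.22) in regulatory T cells and 0.89 (0.69 to 1.09) in CD4 T cells, all still past the fold. In Kupffer cells *Klf2* was at 0.51 (0.06 to 0.94) and *Klf6* at 0.50 (−0.12 to 1.09), both under it, on 59 and 31 anti–PD-1 UMIs. *Klf6* in macrophages was at 0.64 (0.20 to 1.06) against 1.41 in all macrophages. *S1pr1* in CD4 T cells was at 1.37 (0.99 to 1.76). In neutrophils *Klf2* was at 1.83 (1.57 to 2.10), above its value in all neutrophils, and *Klf6* at −0.05 (−0.40 to 0.29). Monocytes and endothelial cells left 12 and 19 anti–PD-1 cells and are not given.

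A further comparison took only cells in which a Y-linked gene but not *Xist* was detected, 1481 in the PBS and 7861 in the anti–PD-1 library. Free RNA can bring a Y-linked UMI into a female cell, so these are not certain to be male. *Klf2* had a log2 ratio of 2.14 (2.00 to 2.29) there in macrophages, 1.49 (1.38 to 1.59) in Kupffer cells and 1.67 (1.27 to 2.09) in CD4 T cells. In neutrophils it was 0.18 (−0.04 to 0.40) and in monocytes 0.34 (0.07 to 0.62), both under the fold. *Klf4* also fell short in neutrophils, at −0.41 (−1.58 to 0.95) on 5 PBS UMIs, in CD8 T cells, at 0.25 (−0.65 to 1.22), and in endothelial cells, at −0.04 (−0.55 to 0.47). *Klf6* in monocytes, at 0.57 (0.22 to 0.94), and *Klf10* in neutrophils, at −0.55 (−1.42 to 0.45), were likewise no longer past the fold. *S1pr1* in CD4 T cells was at 1.58 (0.82 to 2.42), on 12 PBS UMIs. Ratios in regulatory T cells were smaller than over all cells, at 0.89 (0.20 to 1.66) for *Klf2* and 0.95 (−0.80 to 2.93, on 2 PBS UMIs) for *Klf4*. *Klf2* in CAFs was at 1.11 (0.69 to 1.56), against 1.87 over all CAFs.

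Of the 39 member differences counted over all cells, 32 were kept in these cells, and 14 others passed the fold there but not over all cells, 7 higher and 7 lower, of which 4 had intervals that spanned 0. A larger share of all genes also passed the fold there than over all cells. It was 12.2% higher and 24.65% lower in NK cells, 18.3% and 23.0% in endothelial cells, and 14.5% and 32.9% in neutrophils. NK cells gained *Klf2* (0.65, 0.25 to 1.08), *Klf6* (1.13, 0.67 to 1.62) and *Klf10* (1.73, −0.07 to 2.74, on 1 PBS UMI). Endothelial cells gained *Klf6* (1.01, 0.30 to 1.76), and *Klf6* in neutrophils passed as lower (−0.89, −1.18 to −0.58).

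Within the PBS library alone, cells with *Xist* and cells with a Y-linked gene were also compared. *Klf2* was at 288 and 334 CPM in T cells (log2 ratio of *Xist* over Y-linked cells −0.21, −0.38 to −0.05), at 151 and 119 CPM in macrophages (0.33, 0.18 to 0.48) and at 935 and 1404 CPM in neutrophils (−0.58, −0.86 to −0.30). Over 10 groups of cells and the 7 members, 8 of 70 intervals lay above 0 and 9 below. The share of all genes with such intervals was not computed, so this count is not a result about the members. The groups include all T cells (0 above and 3 below) beside the CD8 T cells, CD4 T cells and T cells without a CD4 or CD8 UMI. These T cells were thus counted again. NK cells had 381 and 199 CPM of *Klf6* (0.92, 0.42 to 1.45) and more *Klf2* in cells with *Xist* (0.52, 0.08 to 0.99), whereas T cells had less *Klf3* there (−0.44, −0.71 to −0.16). *Klf6* in T cells was at 204 and 202 CPM and *S1pr1* at 55.7 and 51.2 CPM. In neutrophils the PBS cells with a Y-linked gene were thus close to the 1588 CPM of the corresponding anti–PD-1 neutrophils in *Klf2*, on 65 PBS cells.

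**Figure D4:**
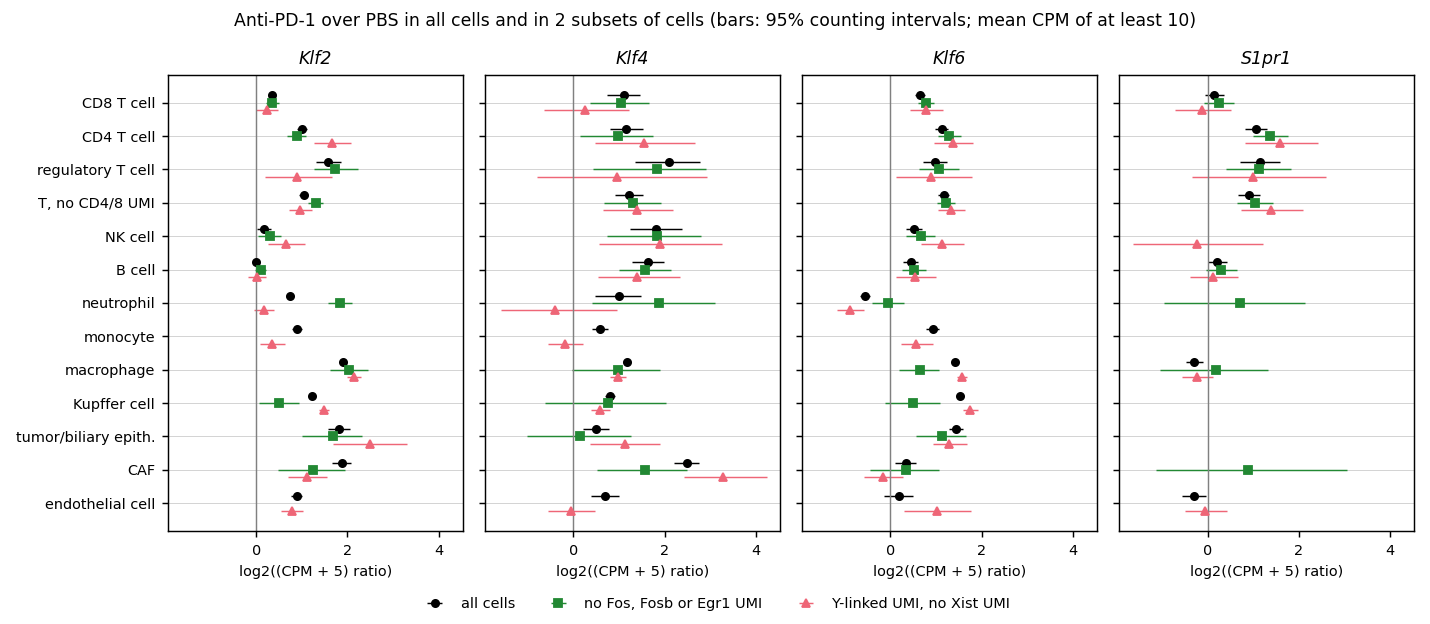
Log2 ratio of (CPM + 5), anti–PD-1 over PBS (x axis), of *Klf2*, *Klf4*, *Klf6* and *S1pr1* by class (y axis) in all cells (black), in cells with no *Fos*, *Fosb* or *Egr1* UMI (green) and in *Xist*-negative cells with a Y-linked UMI (pink), with 95% counting intervals as bars. *Klf2* stays near 2 in macrophages in all 3 sets and is lower in neutrophils with a Y-linked UMI.

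The rest of the Kruppel-like factor family was mostly under the filter or showed no counted difference. Of its 17 genes, members included, 9 passed the filter in T cells and 4 were higher, each of them a member described above. The list median was 0.45. For all genes tested in T cells it was −0.12, and 4.28% were higher and 4.17% lower. *Klf7* (22.7 and 24.7 CPM) and *Klf9* (36.8 and 37.3 CPM) showed no detectable difference in T cells. In endothelial cells 9 passed and 3 were higher, among them *Klf11* (9.54 and 18.8 CPM). In macrophages 8 passed and 3 were higher. Elsewhere 5 of the 8 that passed were higher in regulatory T cells, 4 of 9 in CD4 T cells, also 4 of 9 in T cells that had neither a CD4 nor a CD8 UMI, 4 of 11 in tumor or biliary epithelial cells, 3 of 9 in Kupffer cells, 3 of 10 in CD8 T cells, 3 of 11 in NK cells, 2 of 11 in CAFs and 1 of 10 in B cells. Neutrophils had 3 higher and 2 lower of 10 (list median −0.03) and monocytes 3 higher and 1 lower of 9. In CD4 T cells, T cells without a CD4 or CD8 UMI, B cells and neutrophils every family gene counted as higher was a member. The same held in macrophages, Kupffer cells and CAFs. The members were chosen on this contrast, so these counts are not a result about the family. The share of all genes that was higher ran from 4.32% in B cells to 10.1% in CAFs, and the share that was lower from 2.61% in Kupffer cells to 21.8% in neutrophils. In CD8 T cells *Klf11* (7.64 and 15.1 CPM) was one of those higher.

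In the sphingosine-1-phosphate pathway, 6 of 12 genes passed the filter in T cells and *S1pr1* was the one that was higher (list median −0.10). In endothelial cells 6 passed, 0 were higher and 3 lower (list median −0.45 against −0.09 for all genes, of which 9.22% were higher and 13.6% lower), among them *Spns2*, the exporter of sphingosine-1-phosphate (105 and 60.6 CPM, log2 ratio −0.75), and *Plpp3*, a phosphatase that degrades it (963 and 631 CPM, −0.61). In B cells 1 of the 8 that passed was higher and 2 were lower, against 4.32% and 8.61% of all genes, and in tumor or biliary epithelial cells 1 and 2 of 6, against 7.59% and 5.86%. In regulatory T cells 2 of 6 were higher, against 8.13% of all genes, and *S1pr1*, a member chosen on this contrast, was among them. In NK cells 1 of 6 was lower and in monocytes 1 of 5, against 12.5% and 9.69% of all genes. *Sgpp1*, another phosphatase of the pathway, was lower in macrophages (33.4 and 20.4 CPM, −0.60).

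Of 12 genes of homing and quiescence linked to KLF2 and FOXO1, 4 were higher and 1 lower in T cells (list median 0.40), against 4.28% and 4.17% of all genes. *Ccr7*, the lymph node homing receptor, was at 87.6 and 307 CPM (log2 ratio 1.75, 1.66 to 1.85), and the antiproliferative *Btg1* at 825 and 1420 CPM (0.78). *Il7r*, the IL-7 receptor, was lower, at 606 and 391 CPM (−0.63), and *Tcf7* (275 and 250 CPM) stayed under the fold. In macrophages 11 passed the filter and 7 were higher (list median 0.94 against −0.14 for all genes, of which 6.73% were higher and 4.23% lower), led by *Cd69* (22.5 and 118 CPM, 2.17). The list holds *Cd69*, whose product keeps S1PR1 off the cell surface, beside homing genes. Its counts and median are therefore not a measure of homing or quiescence. The list was not raised in immune cells alone. In tumor or biliary epithelial cells 8 of 11 were higher (list median 1.075), against 7.59% of all genes. In CAFs it was 6 of 12 (0.70), against 10.1%. Endothelial cells had 6 higher and 2 lower of 12 (0.535), against 9.22% and 13.6%. B cells had 3 of 12 higher (0.15), against 4.32%.

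Genes that KLF2 and KLF4 control in endothelium moved in both directions in endothelial cells, where 3 of 8 were higher and 2 lower (list median −0.07 against −0.09 for all genes, of which 9.22% were higher and 13.6% lower). The list does not separate genes that KLF2 and KLF4 raise from genes that they lower, so its median is not a measure of their activity. *Vcam1*, an adhesion molecule of inflamed endothelium, was at 152 and 531 CPM (log2 ratio 1.77), and *Edn1*, the endothelin gene, at 187 and 424 CPM (1.16). *Nos3*, the endothelial nitric oxide synthase, was at 143 and 79.4 CPM (−0.81) and *Cav1* at 138 and 50.1 CPM (−1.38). Kupffer cell markers summed to 115 and 378 CPM and macrophage markers to 556 and 926 CPM in these cells, and their part in the values was not tested.

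Of 8 early TGF-β response genes, 2 were higher and 1 lower in T cells and 5 were higher and 1 lower in macrophages (list medians 0.29 and 0.70). Of all genes tested, 4.28% were higher and 4.17% lower in T cells and 6.73% and 4.23% in macrophages, with medians of −0.12 and −0.14. *Klf10* itself was under the fold in both classes. *Tgif1* was at 43.4 and 162 CPM (log2 ratio 1.79) and *Pmepa1* at 138 and 62.2 CPM (−1.09) in T cells. *Id1* (58.1 and 130 CPM, 1.09) was higher in macrophages.

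Across the 24 sums of the 12 classes in both libraries, the genes whose log2(CPM + 5) was most like a member's were listed among 7500 genes, as a description over sums that share libraries. *Rasgrp2* (Pearson r 0.85), *Tsc22d3* (0.85) and *Map3k8* (0.83) were nearest to *Klf2*, and *Gadd45b* (0.84) and *Dusp1* (0.84) to *Klf6*. *Hspa5* (0.90), *Phf11d* (0.88) and *Ifi205* (0.87) were nearest to *Klf4*, and *Gpcpd1* (0.85) and *Armc3* (0.84) to *Klf3*. *Map7d1* (0.87), *Cyb5r1* (0.87) and *Atg7* (0.87) were nearest to *Klf10*, *Abca7* (0.93), *Foxn2* (0.92) and *Il17ra* (0.92) to *Klf13*, and *Gm8369* (0.95), *BE692007* (0.94) and *Slamf6* (0.93) to *S1pr1*.

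Classes with 50 to 99 cells in at least 1 library had wide intervals. *Klf2* was at 37.5 and 200 CPM in plasma cells (log2 ratio 2.27, 1.89 to 2.66), 132 and 451 CPM in cDC1 (1.74, 1.43 to 2.06), 51.3 and 145 CPM in cDC2 (1.42, 0.97 to 1.86) and 93.5 and 350 CPM in mature migratory dendritic cells (1.85, 1.26 to 2.47). Plasmacytoid dendritic cells had 526 and 774 CPM (0.55, 0.29 to 0.82), under the fold. *Klf10* rested on 7 or fewer anti–PD-1 UMIs in each dendritic cell class, for example at 41.6 and 13.7 CPM in cDC2 (−1.31, −2.21 to −0.41).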

How the data were processed

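Single-cell RNA-Seq (Singleron GEXSCOPE) was performed on 1 shYT liver library with PBS and 1 with anti–PD-1. The authors deposited raw UMI counts per gene and barcode, made with the Singleron software on mm10. Its version and annotation are not given in the sources used here, and the submitters' processing notes name Seurat 4.3. The deposited counts hold 19397 and 19451 barcodes with 121713441 and 100807037 UMIs, and 99.56% of the gene identifiers were found in GENCODE vM21.

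Cells with 500 to 5000 genes and at most 10% mitochondrial UMIs were kept. A class needed a mean scaled marker score of at least 0.25, a margin of 0.1 and 3 of its 6 markers, and T cells were divided by *Cd4*, *Cd8a*, *Cd8b1* and *Foxp3* UMIs. No cell annotation by the authors was used. Doublets were kept, and Scrublet (scanpy 1.11.5, score of at least 0.3) marked 4.17% of PBS and 3.39% of anti–PD-1 cells, which were left out as an alternative. The UMI sum of each class in each library was expressed as CPM with exact Poisson intervals, ratios as log2 of (CPM + 5) with intervals from the exact binomial, and shares with Clopper-Pearson intervals, all for counting error only. With 1 library per group no test was made. The calculation of ratios was tested on simulated data.

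The members and gene lists were chosen with earlier results of these data known. The scoring rule of the gate, the Scrublet score and the splits by *Cd69* and *Pdcd1* were set after the data had been seen. Named genes are the members in all compared classes, per list the 4 genes with the largest ratio at a mean CPM of at least 20 in T cells, macrophages or endothelial cells, and per member the 3 most alike. Some genes that this rule names are not reported here. Some further genes (*Klf7*, *Klf9*, *Klf11*, *Btg1*, *Il7r* and *Tcf7*) were named after their values were seen. Alternatives covered filters, gate, doublets, pseudocount, scaling, averaging over cells and cell subsets. Software was python 3.11.15, numpy 2.4.6, scipy 1.17.1 and pandas 2.3.3.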

Additional observations from a re-analysis of the deposited data

Results flagged for a closer look

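These results were singled out because the same contrast pointed in opposite directions in a pair of classes, with both intervals away from 0. With 1 library per group these differences were not tested. *Klf3* had a log2 ratio of −0.34 in B cells and −0.18 in Kupffer cells, against 1.39 in regulatory T cells. *Klf6* had a log2 ratio of −0.56 in neutrophils against 1.51 in Kupffer cells. *Klf13* had a log2 ratio of −0.22 in monocytes against 0.35 in regulatory T cells. *S1pr1* had a log2 ratio of −0.29 in macrophages against 1.15 in regulatory T cells. None of these ratios below 0 reached the fold, and they depended on the scaling. Scaled to the median gene, *Klf3* was at −0.20 in B cells and −0.03 in Kupffer cells, and *Klf13* at −0.09 in monocytes. *Klf6* in neutrophils also moved toward 0 but stayed below it.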

How the results depend on the processing

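Of the 39 member differences counted in the 13 classes, 37 to 39 were kept under each of the other filters, gates, pseudocounts, scalings and averages and with doublets left out. Among *Xist*-negative cells with a Y-linked UMI 32 were kept, and in cells with no *Fos*, *Fosb* or *Egr1* UMI 31 of the 34 that had a value. In both subsets a larger share of all genes passed the fold than over all cells. In macrophages it was 8.54% higher and 6.91% lower in the former, and 24.1% and 18.7% in the latter. The setting without the filter on low values leaves each ratio as it was, so its ratios could not move and its counted differences could not be lost. Over all alternatives, that setting included, 1013 of 1169 log2 ratios moved by less than their counting interval, 153 by more, and 3 changed sign from a counted difference. These were *Klf4* in neutrophils (−0.41) and endothelial cells (−0.043) among those Y-linked cells, and *Klf10* in neutrophils (0.44) among cells with no *Fos*, *Fosb* or *Egr1* UMI, and the cause was not tested. The number of classes with *Klf10* lower, 2 as reported, was 5 with a pseudocount of 1, 1 with a pseudocount of 20, 0 with median-of-ratios scaling, 4 with CPM counted without mitochondrial, ribosomal protein and immunoglobulin genes, 5 in the Y-linked cells and 4 in cells without early response UMIs. The number with *Klf6* lower, 0 as reported, was 1 with the stricter gate, with doublets left out and in the Y-linked cells. *S1pr1* was higher in 5 classes instead of 3 in cells without early response UMIs, where it rested on 5 or fewer UMIs per library in neutrophils and CAFs. No paired analysis was possible because each group has 1 library. Leaving out a replicate was not possible for the same reason.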
